A study of Mus musculus with 3 samples.

Results

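Mural cells are the pericytes and smooth muscle cells that sit on the outside of blood vessels, and their nuclei were examined here in dorsal root ganglia (DRG), which hold the somas of sensory neurons next to the spinal cord. Nuclei were chosen by their counts of 5 mural genes. A barcode with more than 1000 detected genes was taken as mural when it held 3 or more unique molecular identifiers (UMIs, each tagging 1 captured transcript) over Notch3, Rgs5, Kcnj8, Abcc9 and Myh11, from at least 2 of these genes. This sum also had to reach at least 2 times the UMIs over 7 markers of endothelial cells, fibroblasts, neurons and glia (Flt1, Ptprb, Pdgfra, Snap25, Scn9a, Prx, Bcan). The rule kept 106 of 19259 nuclei (0.550%), of which 72 came from the adult library, 29 from the first aged library (aged replicate 1) and 5 from the second. The libraries were made by single-nucleus RNA sequencing with PIP-seq, which captures nuclei with barcoded beads in template particles, from frozen L3 to L5 DRG of C57BL/6 mice, for which the labels give no treatment. There was 1 adult library (3 months) and there were 2 aged libraries (21 months), all labelled male, although the methods of the study list aged mice as female. The study describes the libraries as biological replicates, the number of mice behind each is not stated, and a library was counted as 1 replicate. A lone adult library gives no spread among adult mice, so that age and anything else that set it apart from the aged libraries cannot be told apart.

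Pericytes share a basement membrane with the endothelial cells of capillaries, while smooth muscle cells form a contractile layer around arterioles and venules. Endothelial cells recruit them by releasing PDGF-B, which binds the receptor PDGFRβ on mural cells, and Notch3 on mural cells receives Notch ligands from neighbouring cells. Calcium entry and release drive contraction through myosin light chain kinase, endothelin and angiotensin receptors raise it, and nitric oxide opposes it through soluble guanylate cyclase, cyclic GMP and its kinase. In the DRG, where the capillaries are more permeable than those of the brain, these cells are part of the vessel wall around the sensory neuron somas.

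The libraries held 69045987 to 167664164 UMIs, of which 53.8 to 58.4% lay in nuclei of more than 1000 genes. Mural nuclei summed to 219555 UMIs in the adult library, to 116562 UMIs in aged replicate 1 and to 15815 UMIs in aged replicate 2, and values below are listed in this order of libraries. A gene of 3 UMIs in these sums therefore has a level of 13.7, 25.7 and 190 UMIs per 1000000 UMIs of the class (CPM), and lower levels rest on 1 or 2 UMIs. The median mural nucleus held 2625.5, 3603 and 2371 UMIs, against 3269, 4317.5 and 4900 over all nuclei. At most 1 barcode of a nucleus was shared between any pair of libraries. Against the label of male mice, kept nuclei held 127630, 47168 and 34951 UMIs of Xist, the RNA of the inactive X chromosome of females, beside 2206, 830 and 347 UMIs of 4 Y-linked genes, and the mice behind each library cannot be told from the counts. Every level below is a sum over the nuclei of a library in CPM, and differences between mural and other nuclei are given without a test because the rule chose the nuclei by their counts.

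The 5 genes of the rule are given first as a description. Notch3 (chromosome 17, 32120820 to 32166852, minus strand of GRCm38), a receptor that receives signals from neighbouring cells, was at 1585, 1527 and 1897 CPM. Rgs5, a regulator of G protein signalling on chromosome 1 (169655501 to 169695813, plus strand), was at 1831, 1407 and 2782 CPM. Both were in nearly every mural nucleus, Notch3 in 100 of 106 and Rgs5 in 97. Rgs5 also gave UMIs in 11.6, 12.4 and 14.4% of all other nuclei and was at 83.3, 57.9 and 83.3 CPM in free RNA, the RNA in barcodes of 10 to 100 UMIs that hold no nucleus. Notch3 did so in 3.80, 3.29 and 3.38% of other nuclei. Kcnj8 and Abcc9 lie side by side on the minus strand of chromosome 6 (142564837 to 142571614 and 142587862 to 142702315) and encode the pore and the sulfonylurea receptor subunit of an ATP-sensitive potassium channel. Kcnj8 was at 196 and 129 CPM in the adult library and aged replicate 1, with no UMI in the 5 nuclei of aged replicate 2, where 3 UMIs would be 190 CPM. Abcc9 was at 492, 283 and 948 CPM. Myh11 (chromosome 16, 14194535 to 14291372, minus strand), the myosin heavy chain of smooth muscle, was at 492, 806 and 253 CPM. Kcnj8 was detected in 31 nuclei, Abcc9 in 61 and Myh11 in 61. Most nuclei held several of the 5 genes, with 24 nuclei holding 2 of them, 37 holding 3, 34 holding 4 and 11 holding all 5.

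The label was checked with markers that the rule did not use. Pdgfrb, the receptor of PDGF-B, was at 997, 592 and 2023 CPM in mural nuclei, against a mean of 34.7 CPM over the 3 libraries in all other nuclei. Cspg4, the NG2 proteoglycan of pericytes, was at 301, 300 and 379 CPM, or 19.8 to 30.5 times its level in all other nuclei. Vtn, which encodes the matrix protein vitronectin, was at 342, 232 and 316 CPM against 2.65 CPM. Higd1b, a pericyte marker, was at 159, 77.2 and 379 CPM against 0.197 CPM. Acta2 (chromosome 19, 34241090 to 34255590, minus strand), the actin of smooth muscle, was at 273, 635 and 190 CPM against 1.26 CPM. Tagln, an actin-binding protein of smooth muscle, was at 128, 438 and 190 CPM against 2.99 CPM. Each of these markers was present in all 3 libraries at a level above that of other nuclei, so the mural sums bear both the pericyte and the smooth muscle part of their label. The smooth muscle part came from a minority of nuclei. Acta2 was detected in 7 of 72, 9 of 29 and 1 of 5 nuclei, and Tagln in 7, 7 and 1. Ndufa4l2 (95.6 and 42.9 CPM) and Cnn1 (9.11 and 60.1 CPM) had no UMI in aged replicate 2, where 1 UMI is 63.2 CPM and a count of 0 allows up to 190 CPM.

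Nuclei near the threshold were set beside the rest for these markers. Just inside the rule were 13 nuclei with 3 to 5 UMIs of the 5 genes. Pdgfrb was at 767 CPM in the 9 adult ones (15 UMIs) but at 92.1 CPM in the 4 of aged replicate 1 (1 UMI), and at 946 CPM over the 93 nuclei with 6 or more. Dlc1 also had 1 UMI in those 4 nuclei, or 92.1 CPM, against 2895 CPM in the nuclei of aged replicate 1 with 6 or more, while Ebf1 was at 1750 CPM in them against 2299 CPM. Only 1 nucleus held exactly 3. Just outside, 8 nuclei with 2 UMIs from 2 of the genes had 1 UMI of Pdgfrb in 28874, too few to give a level. The 56 nuclei with 3 or more UMIs from a single gene had 7 UMIs of it, or 37.0 CPM, near the 34.7 CPM of all other nuclei. A further 178 nuclei held enough mural UMIs but too many of the 7 counter markers. These were large, with a median of 26374.5 UMIs, and had Pdgfrb at 34.7 CPM (206 UMIs). No doublet caller was run, and a mural nucleus captured with another cell would fall among them or among the mural nuclei.

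Markers of other cell types in the mural sums were compared with the same markers in all other nuclei and in free RNA. These lists hold the counter markers of the rule. Snap25 and Scn9a are among the neuron markers, Flt1 and Ptprb among the endothelial, Pdgfra among the fibroblast, and Prx and Bcan among the glial ones. The rule limited their UMIs in mural nuclei, so that sums below those of other nuclei are partly set by it. The 7 neuron markers summed to 1949, 1604 and 1581 CPM in mural nuclei, against 4963, 4709 and 4288 CPM in other nuclei and 7224, 9574 and 9069 CPM in free RNA. The 6 endothelial markers summed to 542, 498 and 253 CPM, against 121, 133 and 99.6 CPM in other nuclei, 135, 111 and 74.6 CPM in free RNA and 4716 to 4935 CPM in nuclei gated as endothelial. Mural nuclei were thus above other nuclei and free RNA in each library, although 5 of the 6 markers, among them Flt1 and Pecam1, had no UMI in aged replicate 2. The 5 fibroblast markers summed to 1084, 601 and 379 CPM, with Pdgfra, Col1a1 and Lum at 0 in aged replicate 2, against 234, 245 and 179 CPM in other nuclei, 727, 562 and 490 CPM in free RNA and 3824, 3147 and 3539 CPM in nuclei gated as fibroblasts. Mural nuclei were above other nuclei in each library here too, and above free RNA in the adult library and aged replicate 1. Single nuclei weighed on both of these sums. Of the 238 adult UMIs of the 5 markers, 65 of Col1a1 and 64 of Col1a2 were in 1 nucleus. Of the 70 UMIs in aged replicate 1, 1 nucleus held 5 of Dcn, 5 of Col1a2, 4 of Col1a1 and 1 of Pdgfra. Sums without these nuclei were not compared with free RNA, so the excess over it is not shown for the remaining nuclei. Markers of satellite glial cells, which wrap the neuronal somas, summed to 255, 403 and 253 CPM (386, 306 and 213 CPM in other nuclei). Those of myelinating Schwann cells summed to 619, 412 and 316 CPM (1261, 1026 and 575 CPM in other nuclei), and those of non-myelinating Schwann cells to 369, 824 and 443 CPM (1283, 1413 and 1379 CPM). Myeloid markers summed to 36.4, 112 and 63.2 CPM (27.4, 62.5 and 60.5 CPM in other nuclei), lymphocyte markers to 68.3, 240 and 0 CPM (60.9, 76.7 and 64.7 CPM), and red cell and granulocyte markers to 310, 180 and 63.2 CPM (126, 149 and 102 CPM). In aged replicate 2 the myeloid list and the red cell and granulocyte list had 1 UMI each and the lymphocyte list none, below the 3 UMIs set above. Marker RNA of other classes was otherwise present in the mural sums, and its part in the levels below was not tested. Free RNA was estimated at 27.0, 16.8 and 17.4% of the mural sums.

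Of 4409 genes with 20 or more UMIs in mural nuclei, 252 (5.72%) were over 4-fold above all other nuclei in every library, and the median gene was 1.20 times as high in mural nuclei by the ratio of mean CPM. Lists of vessel genes were read beside these values. Of 16 pericyte genes with 20 UMIs, 12 passed 4-fold in every library and the median ratio was 30.1. Of 14 vasoactive receptors and cyclic nucleotide genes 8 passed (median ratio 9.68), of 22 contractile genes 10 (6.78), of 13 mural transcription factors 6 (4.98) and of 28 matrix genes 10 (4.16). Lower medians were seen for 14 genes of PDGF, TGF-β and angiopoietin signals, of which 3 passed (2.88), for 10 Notch pathway genes, of which 2 passed (2.44), and for 21 ion channels and calcium handling genes, of which 2 passed (2.25). Mitochondrial transcripts (0 of 11, 1.88), immediate early and heat shock genes (0 of 4, 1.04) and abundant noncoding RNAs (0 of 6, 0.605) had none. Interferon and MHC class I genes (1 of 10, 3.79) and cell cycle arrest genes (1 of 4, 5.24) had 1 each. A gene needed 20 UMIs in mural nuclei to be counted, so members that were low there are not in these counts or medians. The whole lists held 18 pericyte, 39 vasoactive, 26 contractile, 26 transcription factor and 36 matrix genes. They held 31 genes of PDGF, TGF-β and angiopoietin signals, 21 of Notch and 30 of ion channels. The others held 13 mitochondrial, 16 immediate early, 6 noncoding, 33 interferon and 17 cell cycle arrest genes. These ratios describe the nuclei that the rule picked. The sum over other nuclei weighs each nucleus by its UMIs, so endothelial nuclei and fibroblast nuclei are set beside the mural nuclei for single genes. Both were gated in the same way on their own markers (198, 155 and 62 endothelial nuclei, and 692, 282 and 148 fibroblast nuclei).

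**Figure D1:**
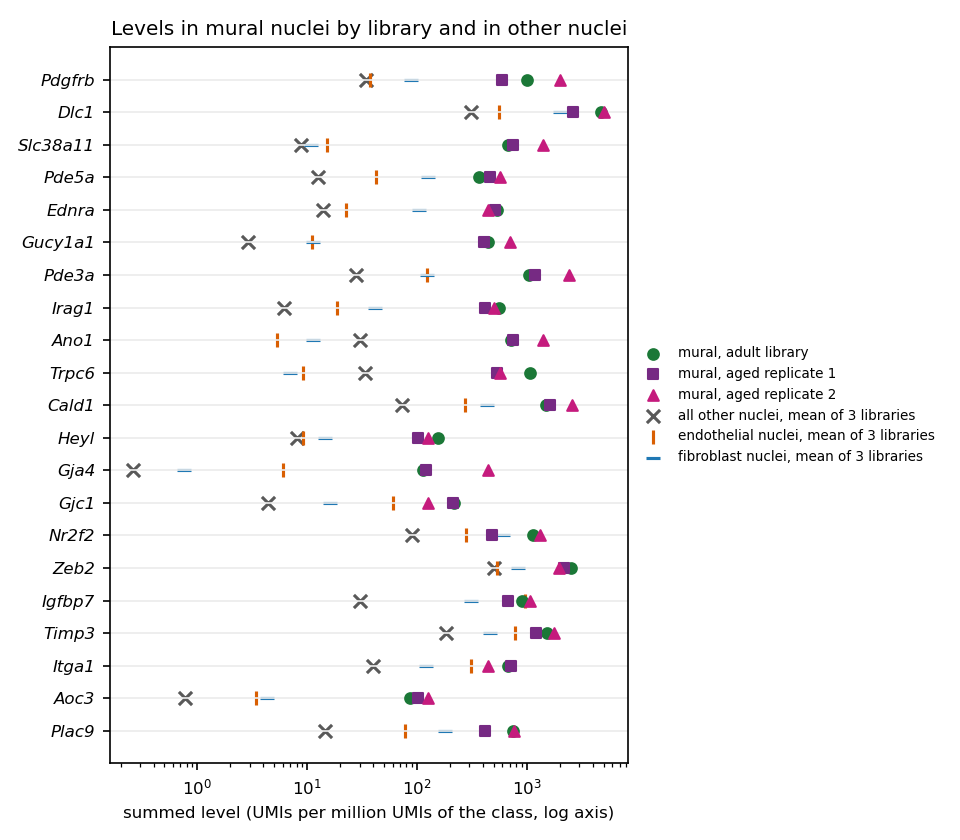
Levels of 21 genes in mural nuclei, in CPM on a log axis, with 1 point for each library, beside the mean over the 3 libraries of all other nuclei (cross), endothelial nuclei (vertical bar) and fibroblast nuclei (horizontal bar). Mural points lie to the right of the cross in every row, for example Ednra at 443 to 537 CPM against 13.8 CPM, while endothelial Igfbp7 lies among the mural points.

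Among pericyte genes, Dlc1, which encodes an inactivator of small GTPases, was at 4769, 2634 and 5058 CPM in mural nuclei. Its mean was 553 CPM in endothelial nuclei and 1984 CPM in fibroblast nuclei, so the distance to fibroblasts was small beside that to endothelial nuclei. Slc38a11, a member of an amino acid transporter family, was at 670, 746 and 1391 CPM, against 15.3 CPM in endothelial and 10.8 CPM in fibroblast nuclei. Pdgfrb, given above, was at 37.7 and 87.7 CPM in these classes. Pde5a, the phosphodiesterase that breaks down cyclic GMP, was at 364, 463 and 569 CPM, against 42.4 and 126 CPM. Nrp1, a coreceptor for VEGF and semaphorins, was at 884, 635 and 1138 CPM, against 434 and 263 CPM. Ebf1, a transcription factor often used to mark pericytes, was at 3370, 2248 and 2466 CPM. It was far from exclusive to them, since the means were 1390 CPM in all other nuclei, 1907 CPM in endothelial nuclei and 1408 CPM in fibroblast nuclei.

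Receptors for vasoactive signals were also measured. Ednra (chromosome 8, 77663031 to 77724464, minus strand) encodes the endothelin A receptor, through which endothelin 1 contracts vessels, and the study's interest lay in endothelin signalling in the DRG. The level of Ednra was 537 CPM from 118 adult UMIs, 515 CPM from 60 UMIs of aged replicate 1 and 443 CPM from 7 UMIs of aged replicate 2, a mean of 498 ± 49.5 CPM (SD, n = 3). All other nuclei were at 13.8 ± 1.29 CPM, endothelial nuclei at 22.7 ± 6.47 CPM and fibroblast nuclei at 104 ± 34.1 CPM (SD, n = 3). The lowest mural library lay above the highest library of each other class, and the ratio to all other nuclei stayed between 34.9 and 37.4. Under some other settings the mean of mural Ednra moved by more than its SD. It was 585 CPM with a 4-fold excess over counter markers and 621 CPM without Rgs5 in the rule. It was 421 CPM over 2000 genes and 592 CPM after thinning. With 5 marker UMIs (518 CPM) and over 500 genes (488 CPM) it moved by less. Ednrb, the endothelin B receptor of satellite glial and endothelial cells, was at 54.7, 85.8 and 126 CPM in mural nuclei, from 12, 10 and 2 UMIs. It was at 27.0 CPM in all other, 27.2 CPM in endothelial and 21.1 CPM in fibroblast nuclei. By detection the adult order was reversed, with Ednrb in 12.5% of adult mural nuclei against 17.1% of all other adult nuclei. In aged replicate 1 it was in 24.1% against 13.0%, and in aged replicate 2 in 1 of 5 against 11.2%. These orders were the same after thinning. Satellite glial nuclei were not gated, so a higher level of Ednrb in mural nuclei than in that class is not shown. Agtr1a, the receptor of angiotensin II, was at 592, 266 and 379 CPM in mural nuclei. Its means were 24.0 CPM in all other nuclei, 5.96 CPM in endothelial and 38.0 CPM in fibroblast nuclei. Adra2a, an α2 adrenergic receptor that responds to noradrenaline, was at 187, 77.2 and 126 CPM against 1.61 CPM in all other, 8.23 CPM in endothelial and 6.88 CPM in fibroblast nuclei. Ednrb, Agtr1a and Adra2a were named after their values were seen.

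The genes that carry the nitric oxide signal were also measured. Gucy1a1 and Gucy1b1 encode the α and β subunits of soluble guanylate cyclase, the enzyme that nitric oxide activates. Gucy1a1 (chromosome 3, 82092427 to 82145789, minus strand) was at 446, 403 and 696 CPM in mural nuclei and at 2.87, 11.0 and 11.2 CPM in all other, endothelial and fibroblast nuclei. Gucy1b1, named after its values were seen, was at 433, 326 and 632 CPM against 2.65 CPM in all other nuclei. The second α subunit, Gucy1a2, was at 820, 1029 and 1391 CPM, against 111, 65.2 and 143 CPM. Downstream of cyclic GMP, the kinase gene Prkg1 was closer to its level elsewhere, at 4054, 2943 and 4047 CPM against 2886 CPM in all other nuclei, 1604 CPM in endothelial and 1134 CPM in fibroblast nuclei. Irag1, a target of this kinase at the store from which calcium is released, was at 556, 412 and 506 CPM against 6.17, 18.7 and 41.8 CPM. Among phosphodiesterases, Pde3a was at 1048, 1184 and 2403 CPM against 27.7, 122 and 123 CPM, and Pde1a was at 660, 549 and 1075 CPM against 79.1, 158 and 322 CPM. Plcb4, a phospholipase C that acts below G protein-coupled receptors, was at 501, 806 and 506 CPM, while endothelial nuclei were at 533 CPM.

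Ion channels ranged from those well above every other class to those below their neighbours. The chloride channel Ano1 (chromosome 7, 144588549 to 144751974, minus strand), which calcium opens, was at 711, 746 and 1391 CPM in mural nuclei. It was at 30.4 CPM in all other nuclei, 5.36 CPM in endothelial and 11.4 CPM in fibroblast nuclei. Trpc6, a cation channel that diacylglycerol opens, was at 1061, 540 and 569 CPM against 33.6, 9.07 and 6.92 CPM. Cacna1c, the pore of the L-type calcium channel that admits calcium for contraction, was at 2209, 2076 and 3098 CPM against 995, 221 and 464 CPM. Neurons also use this channel. Cacnb2, a subunit of the same channel, was at 683, 755 and 443 CPM against 96.1, 26.7 and 23.9 CPM. Trpm3, which senses heat in neurons, was at 1253, 695 and 822 CPM, below its means of 2546 CPM in endothelial and 2219 CPM in fibroblast nuclei.

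Genes of the contractile apparatus were read next. Cald1, the actin-binding protein caldesmon, was at 1489, 1630 and 2592 CPM in mural nuclei against 73.3, 273 and 430 CPM in all other, endothelial and fibroblast nuclei. Mylk, the myosin light chain kinase, was at 1084, 918 and 190 CPM, the last from 3 UMIs, against 271 CPM in all other nuclei. Tpm1, a tropomyosin, was at 724, 712 and 822 CPM against 142 CPM in all other nuclei. Ppp1r12a, the targeting subunit of myosin phosphatase, was at 742, 952 and 1075 CPM against 250 CPM. Rock2, a kinase that inhibits this phosphatase, was at 360, 446 and 569 CPM against 207 CPM. The 60, 74 and 3 UMIs of Acta2 came from only 7 of 72, 9 of 29 and 1 of 5 mural nuclei, so that its level describes a minority of them.

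The promoter sequences of Acta2 and Rgs5 are shown because Acta2 was held by few mural nuclei and Rgs5 by nearly all of them. Rgs5 is a gene of the rule and Acta2 is not, so the rule itself set part of this contrast. CArG boxes, which bind serum response factor in smooth muscle genes, are CC, 6 bases of A or T, and GG, and the core motif of RBPJ, the DNA-binding partner of Notch receptors, is TGGGAA. Both were sought on both strands in the 300 bases from 250 before to 50 after the gene start in the RefSeq table of GRCm38.p6. Of 7 genes sought, Acta2, Cnn1, Rgs5 and Notch3 were in the table, and Myh11, Tagln and Heyl were not. None of the 4 promoters held a full CArG box, which 1.63% of 32851 promoters do. When 1 of the 6 inner bases was allowed to be G or C, a search added after the values were seen, the Acta2 promoter held 2 such boxes and the other 3 promoters held none. At least 1 such box is in 9.98% of all promoters, and 2 or more in 0.822%. The RBPJ core was found once in Acta2, overlapping the second box, and in none of the other 3, against 25.6% of all promoters. The 120 bases before the RefSeq start are printed below, chr19:34255374-34255493 on the minus strand for Acta2 and chr1:169655381-169655500 on the plus strand for Rgs5. By the gene range given above, Acta2 starts farther upstream, at 34255590, so that its printed stretch lies inside the gene by that annotation and before the start by RefSeq. Capitals mark the boxes with 1 departure, which begin 84 and 34 bases before the start, and the RBPJ core, which begins 27 bases before it.
Acta2: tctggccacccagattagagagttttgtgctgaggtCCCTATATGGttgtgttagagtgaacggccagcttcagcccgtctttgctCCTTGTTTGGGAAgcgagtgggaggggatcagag
Rgs5: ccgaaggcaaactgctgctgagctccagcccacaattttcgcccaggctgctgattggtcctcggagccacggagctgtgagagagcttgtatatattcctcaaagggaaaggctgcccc
A match describes these letters only, and the absence of one says nothing of the factors that bind there.

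Notch pathway genes beyond Notch3 were measured at lower contrast. Heyl, a transcriptional repressor that Notch receptors switch on, was at 155, 103 and 126 CPM in mural nuclei against 8.12 CPM in all other nuclei, 9.22 CPM in endothelial and 14.6 CPM in fibroblast nuclei. Jag1, a Notch ligand, was at 114, 206 and 379 CPM against 23.7, 85.5 and 85.6 CPM. Hes1, another Notch target, was at 246, 85.8 and 506 CPM against 30.2 CPM in all other nuclei. The cofactors were spread more evenly, with Rbpj at 173, 94.4 and 190 CPM against 78.9 CPM and Maml3 at 852, 703 and 885 CPM against 160 CPM. Maml2 was at 993, 772 and 1201 CPM, while endothelial nuclei were at 1215 CPM. Notch4, a receptor of endothelial cells, had 1 UMI in all mural nuclei and was at 70.6 CPM in endothelial nuclei, and the ligand Dll4 had 2 UMIs against 40.2 CPM. Notch1, another Notch receptor, had 41 UMIs and was at 68.3, 214 and 63.2 CPM against 131 CPM in endothelial nuclei, and the Notch target Hey2 had 17 UMIs.

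Signals and junctions between mural and endothelial cells came next, and the same naming rule did not name Pdgfb among them. Pdgfb, the ligand of Pdgfrb, was at 45.5, 17.2 and 63.2 CPM in mural nuclei against 203 CPM in endothelial nuclei. Gja4 (chromosome 4, 127311421 to 127314039, minus strand), which encodes connexin 37 of gap junctions, was at 114, 120 and 443 CPM in mural nuclei. It was at 0.262, 5.96 and 0.753 CPM in all other, endothelial and fibroblast nuclei. Gjc1, which encodes connexin 45, was at 219, 214 and 126 CPM against 4.44, 59.9 and 16.3 CPM. Cdh2, the N-cadherin of pericyte contacts with endothelial cells, was at 547, 498 and 696 CPM against 198, 65.0 and 68.8 CPM. Angpt1, the ligand of the endothelial receptor Tek, was at 82.0, 275 and 379 CPM, with fibroblast nuclei at 93.9 CPM inside that range. Tgfbr3, a TGF-β coreceptor, was at 478, 369 and 379 CPM, below endothelial nuclei (659 CPM) and fibroblast nuclei (530 CPM). Ltbp1, which holds TGF-β in the matrix, was at 105, 112 and 253 CPM.

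Matrix genes were shared with fibroblasts to a varying degree. Timp3, an inhibitor of metalloproteinases, was at 1539, 1210 and 1770 CPM in mural nuclei against 183 CPM in all other, 777 CPM in endothelial and 466 CPM in fibroblast nuclei. Itga1, the integrin α1 that binds collagen IV, was at 670, 721 and 443 CPM against 39.7, 312 and 121 CPM. Its partner Itgb1 was at 442, 523 and 759 CPM against 144 CPM in all other nuclei. Col4a1, a collagen of the basement membrane, was at 414, 335 and 316 CPM against 54.4, 138 and 135 CPM. Lama2 went the other way for fibroblasts, at 1052, 832 and 1454 CPM in mural and 1724 CPM in fibroblast nuclei. Col3a1, a fibrillar collagen, was at 469, 446 and 253 CPM, and fibroblast nuclei were at 451 CPM.

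Of the mural transcription factors, Zeb2 was at 2537, 2179 and 1960 CPM in mural nuclei against 507, 536 and 832 CPM in all other, endothelial and fibroblast nuclei. Nr2f2, a nuclear receptor of venous identity, was at 1143, 480 and 1328 CPM against 90.0, 277 and 603 CPM, so that aged replicate 1 lay below the fibroblast mean. Mef2c, a factor of muscle genes, was at 761, 626 and 253 CPM against 110, 467 and 115 CPM. Foxp1 was no higher than in its neighbours, at 811, 1192 and 759 CPM against 1434 CPM in endothelial and 1584 CPM in fibroblast nuclei. Zeb1 (547, 712 and 569 CPM) and Mef2a (446, 360 and 506 CPM) were measured in all 3 libraries.

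Outside the lists, 2363 genes were ranked by their lowest ratio to all other nuclei. Aoc3, an amine oxidase of the vessel wall, was at 86.5, 103 and 126 CPM and 97.4 to 185 times the other nuclei. Rasl12, a small GTPase of the Ras family, was at 251, 343 and 696 CPM. Rasgrp2, an exchange factor for Rap GTPases, was at 301, 223 and 443 CPM and 30.9 to 55.7 times the other nuclei. Mustn1 (82.0, 137 and 126 CPM) and Ddit4l (105, 94.4 and 253 CPM) were also among the 12 leading genes. Plac9, whose reads may be shared with a close copy in the mouse, was at 752, 412 and 759 CPM against 14.5 CPM. Irag1, described above, and 4 predicted genes without an assigned function were among them too. Gm32067 (273, 154 and 696 CPM) and Gm30624 (465, 352 and 1012 CPM) led these, at 106 to 523 and 88.3 to 302 times the other nuclei.

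Mural nuclei were then divided by whether they held more Myh11 UMIs, as smooth muscle does, or more UMIs of the pericyte channel genes Kcnj8 and Abcc9. The Myh11 side held 33 nuclei, the Kcnj8 and Abcc9 side 47, and 26 were equal, 13 of them without any of the 3 genes. In the adult library 19 of 72 nuclei (26.4%, 95% confidence interval 16.7 to 38.1%) were on the Myh11 side. In aged replicate 1 it was 13 of 29 (44.8%, 26.4 to 64.3%) and in aged replicate 2 it was 1 of 5. The exact Clopper-Pearson intervals of the first 2 overlap and cover counting error only. Many nuclei lay near the division, since 14 on the Myh11 side and 12 on the other were 1 UMI from equal. Counts of genes higher or lower on a side were made from the direction in the adult library and aged replicate 1, and without a test, since the same nuclei and reads made the division. UMIs, CPM and ratios of the sides are sums over all 3 libraries, with 1 nucleus against 3 from aged replicate 2.

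The contractile genes followed Myh11. In both libraries 19 of 22 were higher on the Myh11 side and 1 was lower, and the median ratio over the sums of all 3 was 2.16. Over all 3529 genes with 20 UMIs, 25.9% were higher and 28.1% lower in both libraries, and the median ratio of the sums was 0.969. Acta2 gave the sharpest division, with 131 UMIs in 13 of the 33 nuclei on the Myh11 side, 6 UMIs in 4 of the 26 equal nuclei and none in the 47 nuclei of the other side. Within the Myh11 side it was uneven, since 20 nuclei had none and 1 nucleus had 33 UMIs. That nucleus, of aged replicate 1, also held 31 of the 94 Myh11 UMIs in the mural nuclei of its library. The counts of genes by side were not repeated without it. Tagln had 74 UMIs in 11 nuclei against 1 UMI in 1 nucleus. Lmod1, which nucleates actin filaments in smooth muscle, had 30 UMIs in 15 nuclei against 12 in 10 nuclei. Myl9, the regulatory light chain of myosin, had 63 UMIs in 16 nuclei against 35 in 21 nuclei, and Tpm2 had 40 in 16 against 17 in 13. Des, which encodes the intermediate filament desmin, was the 1 gene that went the other way, with 4 UMIs in 4 nuclei against 18 in 12 nuclei. The Kcnj8 and Abcc9 side had more UMIs in all, 179695 against 98145, so that equal counts are a higher level on the Myh11 side.

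**Figure D2:**
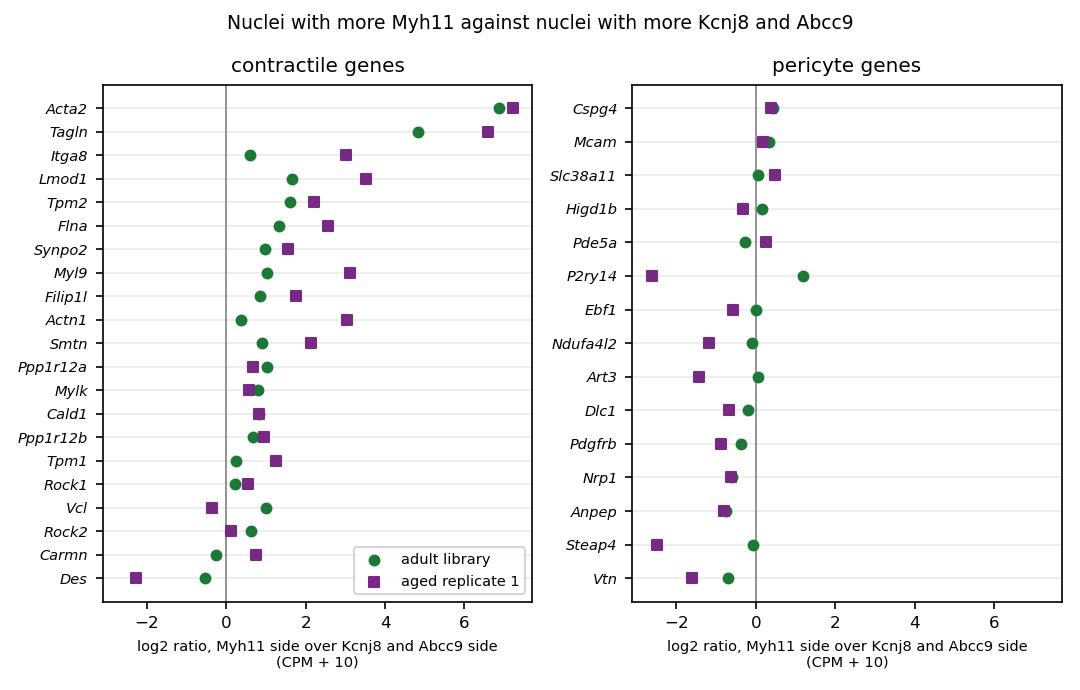
Log2 ratio of the level on the Myh11 side to that on the Kcnj8 and Abcc9 side, with 10 CPM added to each, for 21 of the 22 contractile genes (left) and 15 pericyte genes (right), with 1 point for the adult library and 1 for aged replicate 1. Aged replicate 2 is not drawn, as it has 1 nucleus on the Myh11 side. Both points lie right of the line at 0 for 18 contractile genes and left of it for 7 pericyte genes.

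Of 15 pericyte genes, 7 were lower and 3 higher on the Myh11 side in both libraries, against 28.1% and 25.9% of all genes, and the median ratio of the sums was 0.707. Without the nucleus with most Eln UMIs, described below, 5 were lower and 3 higher, or 33.3% and 20%, against 27.8% and 25.7% of all genes, so that the lower share was then near that of all genes. Pdgfrb was at 642 CPM on the Myh11 side (63 UMIs in 26 nuclei) and at 1074 CPM on the other (193 in 44 nuclei), so that it was present on both. Vtn had 17 UMIs in 10 nuclei against 69 in 29 nuclei, and Steap4, a metalloreductase, had 12 in 9 against 46 in 24. The 3 pericyte genes that were higher on the Myh11 side were Cspg4, at 428 CPM against 312 CPM, Mcam, a cell adhesion molecule, at 224 CPM against 173 CPM, and Slc38a11, at 785 CPM against 696 CPM. Genes of other lists were looked at after their values were seen. Agtr1a was at 306 CPM against 584 CPM and Ednra at 479 CPM against 595 CPM. The lists of ion channels (5 higher and 5 lower of 19) and of vasoactive genes (3 and 4 of 13) did not lean to a side. When only nuclei 2 or more UMIs from equal were taken, which left 19 and 35 nuclei, 10 of 13 pericyte genes were lower and 2 higher, against 32% and 24.4% of all genes.

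Matrix genes were higher on the Myh11 side for 17 of 26 members and lower for 5, against 25.9% and 28.1% of all genes. This rested in part on 1 adult nucleus of 5795 UMIs, which held 81 of the 136 Eln, 65 of the 98 Col1a1 and 64 of the 145 Col1a2 UMIs of all mural nuclei. Col1a1 and Col1a2 are also among the 5 fibroblast markers, of which the others, Pdgfra, Dcn and Lum, had no UMI in this nucleus. It held 7 UMIs of Myh11 and 10 of Acta2. Without it, 11 of 24 matrix genes were higher and 5 lower, against 25.7% and 27.8% of all genes, while 18 of 22 contractile genes were still higher and 1 lower. On the other side, Lamc3 had 64 UMIs in 28 nuclei against 12 in 9, and Lama4, a laminin of vessel basement membranes, had 63 in 26 against 14 in 12.

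The share of mural nuclei was compared between the ages. In the adult library 72 of 11518 kept nuclei were mural, or 0.625% (exact 95% confidence interval 0.489 to 0.787%). The 29 of 5130 nuclei of aged replicate 1 were 0.565% (0.379 to 0.811%), and the 5 of 2611 nuclei of aged replicate 2 were 0.191% (0.0622 to 0.446%). The aged mean was 0.378% ± 0.264 (SD, n = 2), and the adult share was 1.65 times as high. The difference of 0.247 percentage points was smaller than the spread of the aged libraries, of which aged replicate 1 lay near the adult library. A two-sided exact permutation test over the 3 libraries gave p = 0.667, and the smallest p that this design allows is 0.333. Among nuclei of over 2000 genes, aged replicate 1 (0.556%) lay above the adult library (0.459%) and aged replicate 2 (0.127%) below. Without aged replicate 1 the ratio was 3.26, and without aged replicate 2 it was 1.11. For every 100 endothelial nuclei there were 36.4, 18.7 and 8.06 mural nuclei, so that here the adult library was above both aged ones. Endothelial nuclei themselves were 1.72, 3.02 and 2.37% of kept nuclei, lowest in the adult library, so that between it and aged replicate 1 this ratio differed mainly by the endothelial share. The median mural nucleus of aged replicate 2 was the smallest of the 3 libraries in UMIs, although the median of all its nuclei was the largest, and the part of depth in these shares was not tested beyond thinning. When every nucleus was thinned to 1000 UMIs, the shares were 0.486, 0.351 and 0.230%, a ratio of 1.67.

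**Figure D3:**
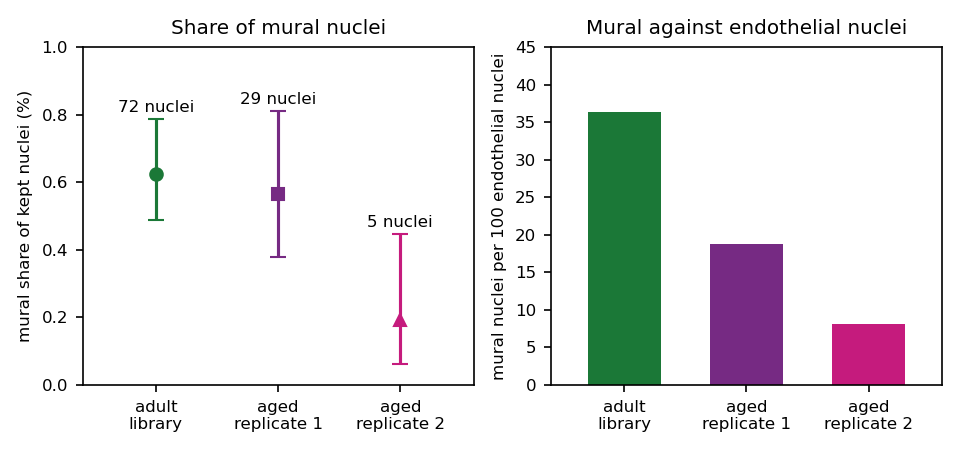
Left, the share of kept nuclei that were mural, in percent, with a point for each library and bars for the exact 95% confidence interval. Right, bars of the number of mural nuclei for every 100 endothelial nuclei, from 36.4 in the adult library to 18.7 and 8.06 in aged replicates 1 and 2, where endothelial nuclei were 1.72, 3.02 and 2.37% of kept nuclei.

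Gene levels in mural sums were compared between the ages with edgeR's quasi-likelihood test, which had 1 residual degree of freedom. Of 4185 genes tested, 3 (0.0717%) were lower and 0 (0%) higher in aged mural nuclei at a Benjamini-Hochberg adjusted p under 0.05, and 54 had an unadjusted p under 0.05. DESeq2 called 0 genes, with 1 at an unadjusted p under 0.05. The 3 genes called were the noncoding RNAs Malat1 and Bc1 and the gene Tbc1d22b, and none of them belongs to the pericyte, contractile, receptor or matrix lists. Both aged libraries lay above the adult one in CPM, with a higher fitted level, for 27.1% of genes. For 23.9% they lay below it, with a lower fitted level. CPM was scaled to library totals and the edgeR fit had its own scaling, so genes on which these differ count as neither. The shares of lists higher or lower in both aged libraries below were counted in the same way.

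Malat1 (chromosome 19, 5795690 to 5802672, minus strand), an abundant RNA that stays in the nucleus, was at 54884, 20753 and 27695 CPM. It fell by 1.45 on the log2 scale (SE 0.16, edgeR quasi-likelihood test, Benjamini-Hochberg adjusted p = 1.54e-16). Free RNA was at 24878, 14074 and 12835 CPM and endothelial nuclei at 48132, 17712 and 17095 CPM, so that the same order of adult and aged was measured in both. Bc1 (chromosome 7, 144914470 to 144914637, plus strand), a short RNA of neurons, had 81 UMIs in 35 adult mural nuclei (369 CPM) and none in aged ones. Against a floor of 3 counts over both aged libraries it was at least 16.3-fold lower (edgeR quasi-likelihood test, adjusted p = 0.000639). Free RNA held it at 1258, 22.9 and 16.6 CPM. Tbc1d22b (chromosome 17, 29549785 to 29606898, plus strand), which encodes a protein with a domain of Rab GTPase activators, had 52, 1 and 0 UMIs, an adult to aged ratio of 31.4 (counting interval 5.38 to 1262). The edgeR quasi-likelihood test gave an adjusted p of 0.0335, and free RNA was at 857, 37.5 and 38.9 CPM. For all 3 genes the adult library was thus above both aged ones in free RNA too. Other settings often ended these calls, since Malat1 was called in 2 of 11 alternatives with an adjusted p (edgeR or DESeq2, 1.22e-149 to 1.00), Bc1 in 6 of 10 and Tbc1d22b in 2 of 9, with no change of direction. Both alternatives that called Tbc1d22b were fits over mural, endothelial and fibroblast sums, without a term for the library. When free RNA was subtracted, Malat1 fell by 1.65 on the log2 scale (SE 0.06) and was called by edgeR. Bc1 and Tbc1d22b were then left with too few counts to be tested. The SE of Malat1 was 0.41 with library totals and 0.65 with 30 or more UMIs, and Malat1 was not called in either. With DESeq2 size factors its log2 change was -1.40 with an SE of 0.12, below that of the main fit, and it was not called there either. A larger SE thus did not go with every lost call, and why the calls were lost was not tested. With 1 adult library, the smallest of these p values does not measure spread among adult mice.

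The genes of next lowest p in each direction did not pass the threshold in this fit. Among those lower in aged libraries, Anapc15 had 64, 0 and 2 UMIs (adjusted p = 0.191 by edgeR's quasi-likelihood test), but 58 of the 64 lay in 1 adult nucleus. Gm48594 had 44, 1 and 0 UMIs (adjusted p = 0.226 by the same edgeR test). Among those higher, all 30 aged UMIs of Pi16 were in 1 nucleus of aged replicate 1, 24 of the 41 of Dcc in another, and 28 of the 48 of Hs6st3 in one more. The nucleus with the Pi16 UMIs held 15 UMIs of the rule's genes. It also held fibroblast markers, with 5 UMIs of Dcn, 5 of Col1a2, 4 of Col1a1 and 1 of Pdgfra. None of Pi16, Dcc and Hs6st3 had a UMI in aged replicate 2, and a single nucleus thus held much of each value. Cmss1 was the 1 gene of this group with support from both aged libraries at many UMIs, at 888, 2282 and 4426 CPM (log2 difference 1.60, edgeR adjusted p = 0.517), and free RNA held it at 1777, 3769 and 6214 CPM in the same order. Gm48099 had 7, 20 and 4 UMIs. Some of these genes passed under other settings of the edgeR test. Among these settings, the fit over mural, endothelial and fibroblast sums had no term for the library. It took the sums of a library as independent of each other, so its p values may be too small. After free RNA was subtracted, Cmss1 (log2 difference 2.03, adjusted p = 0.0399), Pi16 (adjusted p = 0.0259) and Hs6st3 (adjusted p = 0.0110) were called higher in aged libraries by edgeR. In 1 fit over mural, endothelial and fibroblast sums edgeR called Pi16 (adjusted p = 0.000219), Hs6st3 (0.0143), Anapc15 (9.44e-05) and Gm48594 (0.000702), and with the narrower fibroblast gate also Dcc (0.0479).

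**Figure D4:**
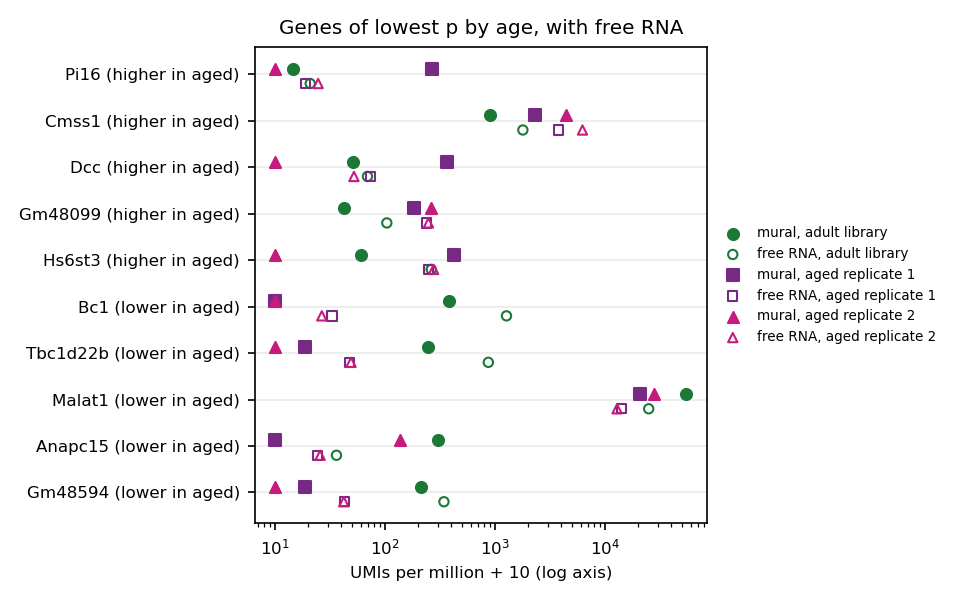
Levels in mural nuclei (filled) and free RNA (open) of the 10 genes of lowest p by age, 5 with a higher and 5 with a lower fitted level in aged libraries, in CPM plus 10 on a log axis, with 1 point for each library. Only Bc1, Tbc1d22b and Malat1 passed the threshold, and their open points stand in the same order of adult and aged as the filled ones.

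The genes that define mural nuclei were read in the same fit, and none passed the threshold in any of the vessel gene lists. Ednra differed by a log2 change of -0.34 (SE 0.67, edgeR quasi-likelihood test, adjusted p = 1.00), Pdgfrb by -0.04 (SE 0.56) and Acta2 by 0.62 (SE 0.73). With standard errors of this size, these values do not show that the ages are alike. Acta2 lay above the adult level in aged replicate 1 and below it in aged replicate 2. Of 22 contractile genes tested, 9 were higher in both aged libraries (40.9%) and 2 lower (9.09%), against 27.1% and 23.9% of all genes, with a median log2 change of 0.20 where that of all genes was -0.03 (0.13 when scaled to library totals). These included Cald1, Ppp1r12a and Rock2, whose values are given above. Of 17 pericyte genes 2 were higher (11.8%) and 5 lower (29.4%, median -0.26), Ebf1 among the lower. Of 26 matrix genes 5 were higher (19.2%) and 9 lower (34.6%, median -0.16), among the lower Col4a1 and Col3a1, and of 13 transcription factors 1 was higher (7.69%) and 5 lower (38.5%, median -0.36), among them Zeb2 and Mef2c. Nuclei of the Myh11 side held 48780 of the 219555 adult mural UMIs, 47847 of 116562 in aged replicate 1 and 1518 of 15815 in aged replicate 2, and the part of this mix in these values was not tested.

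The remaining lists were read beside all genes, of which 27.1% were higher and 23.9% lower in both aged libraries. Of 14 vasoactive genes 6 were higher (42.9%) and 4 lower (28.6%) in both aged libraries, with a median log2 change of -0.02. Of 20 ion channel and calcium genes 4 were higher (20%) and 3 lower (15%, median -0.05). For 11 Notch pathway genes it was 2 (18.2%) and 1 (9.09%, median -0.32). For 17 genes of PDGF, TGF-β and angiopoietin signals it was 5 (29.4%) and 4 (23.5%, median 0.29), near the shares of all genes. Of 11 interferon and MHC class I genes 3 were higher (27.3%, near the share of all genes) and 1 lower (9.09%), with a median of 0.85. Nlrc5, an activator of MHC class I genes, was at 22.8, 180 and 126 CPM, and Iigp1, an interferon-inducible GTPase, was at 63.8, 309 and 0 CPM. B2m, the light chain of MHC class I, was at 506, 558 and 126 CPM, and H2-K1, a heavy chain, at 237, 352 and 253 CPM, so that members did not share 1 order. Of 5 cell cycle arrest genes 1 was higher in both (20%) and none lower, with a median of 0.71. Igfbp7, a secreted protein that binds insulin-like growth factors, was at 911, 678 and 1075 CPM and Igfbp5 at 237, 609 and 126 CPM. Of 11 mitochondrial transcripts 5 were higher in both (45.5%) and none lower (median 0.23). The mitochondrial share was 0.373, 0.608 and 0.367% of mural UMIs. Of 4 immediate early and heat shock genes 2 were lower in both (50%, median -0.36) and none higher. Of 6 abundant noncoding RNAs 4 were lower in both (66.7%, median -0.82), including the called Malat1 and Bc1, and none higher.

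Whether the age difference in mural nuclei differed from that in endothelial nuclei was tested with an interaction term in a fit that kept each library as a block. Of 9546 genes, 0 (0%) passed an adjusted p under 0.05 in edgeR's quasi-likelihood test and 98 had an unadjusted p under 0.05. DESeq2 called 0, with 56 at an unadjusted p under 0.05. No gene was therefore shown to differ with age in mural nuclei in another way than in endothelial ones, Malat1, Bc1 and Tbc1d22b included. The log2 interaction was -0.18 for Malat1 (SE 0.87), -4.16 for Bc1 (SE 4.20) and -2.12 for Tbc1d22b (SE 1.87). With standard errors of this size, these values do not show that the classes are alike.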

How the data were processed

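Nuclear RNA from 3 libraries was analysed. The authors used Pipseeker to make the deposited matrices, which hold raw counts of UMIs for each gene in each barcode. The labels name the genome build mm10, and the gene annotation is not given in the sources used here. The submitters' labels and the text of the series give different ages for the aged mice, and the labels were used. The matrices hold every barcode over 32227 genes, 32098 of which were found in GENCODE M21. Strand use in counting is not stated, so overlapping genes cannot be told apart.

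Barcodes with over 1000 genes were kept, the minimum of the study's methods. Mural, endothelial and fibroblast nuclei were gated on marker UMIs, and Abca8a was left out of the fibroblast gate after seeing that it took nuclei with satellite glial markers. This lowered these markers in fibroblast nuclei from 941, 771 and 753 CPM to 574, 547 and 465 CPM. They stayed above the 386, 306 and 213 CPM of nuclei outside the mural rule, so levels given for fibroblast nuclei include this RNA. The gated members, gene lists and tests were chosen with earlier results of these data known. Genes were named by list (up to 6 of the highest mean level with 20 UMIs), by ratio to other nuclei (12 genes with 30 UMIs) and by age (called genes, and the 5 of lowest p where fewer were called).

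Nuclei are not replicates. Counts were summed per library and tested with edgeR 4.0.16 (TMM, filterByExpr, quasi-likelihood, Benjamini-Hochberg) in R 4.3.3, where the study's methods state a Wilcoxon test on nuclei. Variation of the single adult library was taken to equal that of the aged pair. Shares were tested by exact permutation of library labels, with Clopper-Pearson 95% intervals from scipy 1.17.1. DESeq2 1.42.0, other scalings, filters, gates, thinning to 1000 UMIs and subtraction of free RNA were alternatives. Scripts were tested on simulated data. Promoter sequences are from RefSeq. Results for a few named genes are not reported here.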

Additional observations from a re-analysis of the deposited data

Results flagged for a closer look

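Barcodes below the minimum of genes were outside every comparison and also held mural signal. Of 13097 barcodes with over 500 and up to 1000 genes, 36 (0.275%) met the mural rule, 24 of them adult and 6 from each aged library. By library, 0.295% of adult barcodes met it, 0.182% of those of the first aged library and 0.358% of those of the second. The values below are of genes that the rule did not use, in this order. Pdgfrb was at 1144, 397 and 915 CPM (29, 2 and 6 UMIs) and Ebf1 at 4180, 5156 and 1220 CPM (106, 26 and 8). Ednra was at 394, 0 and 458 CPM (10, 0 and 3 UMIs) and Acta2 at 434, 991 and 0 CPM (11, 5 and 0), so that no library was highest for all 4 genes. With these barcodes included, the shares of mural nuclei were 0.489, 0.416 and 0.257%.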

How the results depend on the processing

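The limits are few nuclei, above all the 5 of aged replicate 2, and 1 adult library. No paired analysis was possible because the groups share only replicate number 1 and no label pairs the libraries. The ratio of adult to aged shares was 1.45 over 500 genes, 1.35 over 2000 genes, 1.55 with 5 marker UMIs, 1.65 with a 4-fold excess over counter markers, 1.67 after thinning and 2.00 without Rgs5 in the rule, and 1.11 to 3.26 when an aged library was left out. The 3 genes called by age became 0 with DESeq2 size factors, with the DESeq2 test, over 2000 genes and after thinning (928 genes tested). They became 1 with library totals, without a filter and with 30 UMIs, 2 with 5 marker UMIs, 10 after free RNA was subtracted (8 higher), and 11 or, with the narrower fibroblast gate chosen after seeing the data, 12 in 1 fit over mural, endothelial and fibroblast sums. The fits over mural, endothelial and fibroblast sums had no term for the library and took the sums of a library as independent. Of the 3 genes called by age, between 0 and 2 were among those called under each alternative. The cause of these changes was not tested. Library totals moved the median log2 change of all genes from -0.03 to 0.13. When an aged library was left out, log2 changes ranged from -2.43 to 5.51 for Pi16, -5.34 to 2.98 for Dcc, -5.62 to 2.92 for Hs6st3, -0.92 to 1.12 for Acta2 and -0.85 to 0.62 for Pdgfrb, turning without aged replicate 1. Pdgfrb also turned with DESeq2 size factors (0.019), library totals (0.21), 30 UMIs (0.15), the DESeq2 test (0.074) and over 2000 genes (0.90), as did Ednra over 2000 genes (0.34), with none past the threshold. Leaving out an aged library left no residual degree of freedom, so these are values without a test, and the interaction could not be fitted that way. It called 0 genes under every alternative run. With only the adult library and aged replicate 1, an alternative added after seeing the data, 20 of 2855 genes were over 4-fold higher and 16 lower in the aged one. On the Myh11 side, contractile genes lower in both libraries went from 1 to 0 with nuclei 2 or more UMIs from equal, and matrix genes higher went from 17 of 26 (65.4%) to 11 of 20 (55%) there and to 11 of 24 (45.8%) without the nucleus with most Eln, where pericyte genes lower went from 7 to 5 of 15. Levels of 16 genes moved by more than the spread of libraries in 6 of 80 values under other gates or minimums of genes and 3 of 16 after thinning. Ednra was among the genes that moved in both. With a library left out, mean levels moved by over 1.5 times for Acta2 (366 to 231 CPM) and Tagln (252 to 159 CPM) without aged replicate 1, and for Pdgfrb (1204 to 795 CPM) without aged replicate 2.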
